A study of Arabidopsis thaliana with 18 samples.

Results

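SAUR (SMALL AUXIN UPREGULATED RNA) genes were followed in Arabidopsis roots in which the transcription factor TMO5 could be switched on. Of 60 listed SAUR loci, 4 had an array feature that the platform's table of probes gives for exactly 1 gene. They were SAUR53 (AT1G19840), SAUR4 (AT4G34800), SAUR10 (AT2G18010) and SAUR57 (AT3G53250). Each was matched by its locus name and had a single feature, among 16722 features of exactly 1 gene and 38408 features in all. A SAUR gene outside the list, SAUR58 (AT1G43040), was found by its name in the TAIR10.1 reference annotation and is described beside the 4 members without being counted among them. The remaining listed loci were not analysed here, so nothing below describes the family as a whole.

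SAUR genes encode short, mostly intronless plant proteins and include some of the earliest transcripts to rise after auxin. Their messages are known to be short-lived. The best studied SAUR proteins inhibit phosphatases of the PP2C.D class, which otherwise switch off the plasma membrane proton pumps that acidify the wall during cell expansion. Inhibitors of protein synthesis have long been known to raise several early auxin transcripts.

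Signals came from 18 arrays, 3 in each of 6 groups, from seedlings 4 days old. In 4 groups, root tips of Col-0 plants carrying pRPS5A-TMO5-GR were collected after 1 h on MS medium alone (root MS), with dexamethasone (root DEX), with cycloheximide, or with both agents. The last 2 groups are called root CHX and root DEX+CHX. The RPS5A promoter is known to be active in dividing cells, DEX releases the TMO5-GR fusion to act, and CHX blocks protein synthesis. In the other 2 groups, J0571>>pUAS-TMO5-GR plants of the C24 background were given MS (J0571 control) or DEX (J0571 DEX) for 2 h. Their roots were protoplasted, and cells carrying GFP were sorted and profiled. J0571 is an enhancer trap line known to mark ground tissue. Every group carries TMO5-GR, so DEX was not tested without the construct, and TMO5 itself has no feature of exactly 1 gene here. No label says whether repeats were separate cultures, so the p-values measure the spread between these samples, which may be technical. Array medians lay between 4.50 and 4.87 log2.

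The 4 members fell into a brighter and a dimmer pair, on the log2 signal scale of the deposited values. SAUR53 lay at 5.04 to 7.16 over the 18 arrays and above the array median on each. SAUR4 lay at 4.45 to 6.09, close to the array median in root MS and root DEX and above it on the other arrays. SAUR10 lay at 2.44 to 2.89, between the 14.1 and 27.4 percentiles of its array, and SAUR57 at 1.65 to 2.48, between the 0.9 and 18.2 percentiles. The dimmer pair was not shown to exceed background in any group, so a change in either could go unseen. SAUR58 spanned 2.71 to 5.64. Different features differ in probe response, so these ranges do not rank the genes by transcript number.

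**Figure D1:**
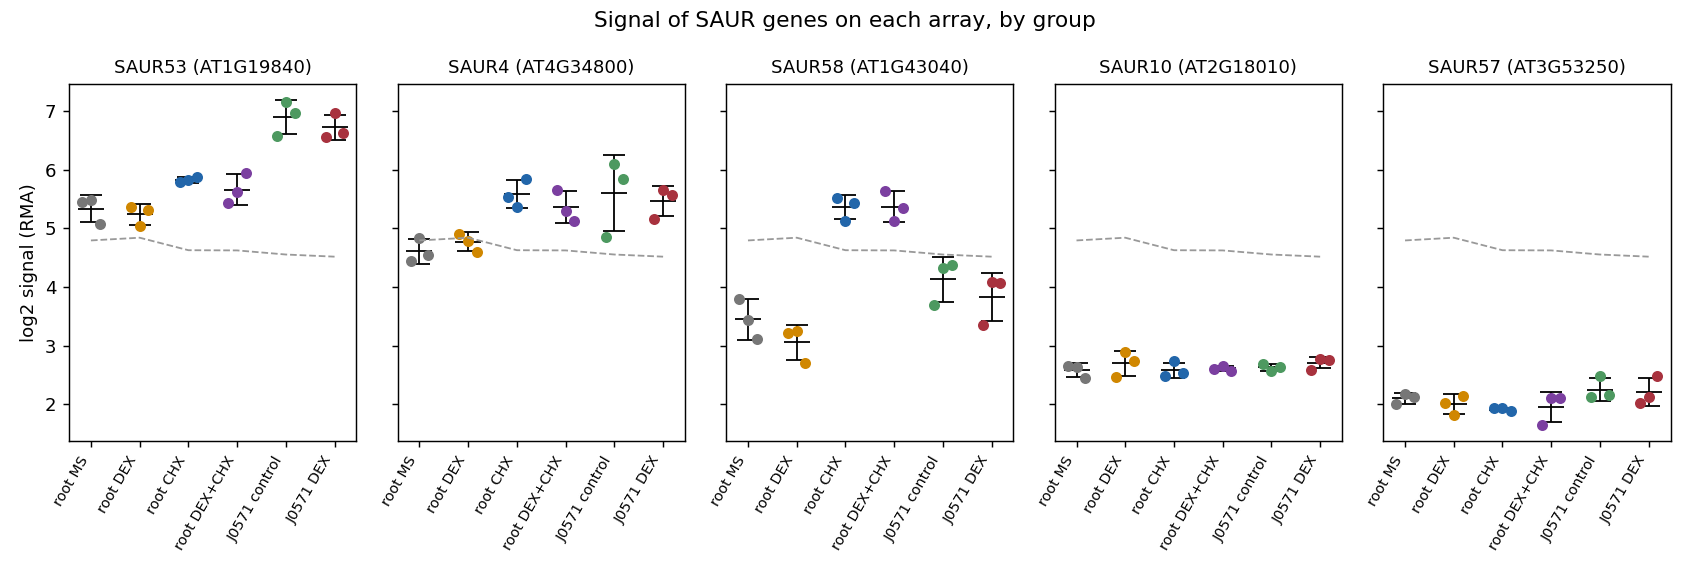
Log2 signal (y axis) of SAUR genes on each of the 18 arrays by group (x axis), with points for arrays, the mean and SD of 3 arrays in black, and a dashed line for the mean array median of each group. SAUR53 is highest in both J0571 groups, SAUR4 and SAUR58 are higher in both CHX groups than in root MS and root DEX, and SAUR10 (2.44 to 2.89) and SAUR57 (1.65 to 2.48) stay low throughout.

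The comparison of root CHX with root MS asks which transcripts respond to 1 h of CHX. SAUR4 rose about 1.95-fold. SAUR4 stood at 4.45, 4.84 and 4.55 in root MS and at 5.53, 5.36 and 5.84 in root CHX, and the groups did not overlap. Its log2 change was 0.97 (SE 0.17, 95% confidence interval 0.58 to 1.35, limma adjusted p = 0.00192). SAUR53 rose less, from 5.45, 5.49 and 5.07 in root MS to 5.79, 5.82 and 5.88 in root CHX. Each root CHX array lay above each root MS array, with a log2 change of 0.49 (SE 0.15, 95% confidence interval 0.15 to 0.83, limma adjusted p = 0.0330). This call was lost without any 1 of the 3 root CHX arrays (adjusted p = 0.0690, 0.0736 and 0.0892) or without root MS replicate 3 (0.110).

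The dimmer pair did not pass with CHX. SAUR10, a gene known for promoting growth of aerial organs and as a target of the fruit and flowering regulator FRUITFULL, had a log2 change of 0.00 (95% confidence interval -0.26 to 0.26). SAUR57 was at 2.00, 2.18 and 2.12 in root MS and at 1.94, 1.93 and 1.88 in root CHX, with a log2 change of -0.18 (SE 0.13, limma adjusted p = 0.334). Its arrays did not overlap between the groups, but all 6 values lie at the bottom of the signal range. In all, 2 of 4 members were called, both higher, while of all features 30.1% were called in either direction and 10.4% as higher. The median change of the members was 0.25, against -0.13 over all features and -0.05 over genes with a feature of exactly 1 gene. The array medians were also lower with CHX, 4.61 to 4.65 against 4.76 to 4.87. With array medians made equal, the median change of all features went from -0.13 to 0.04, and SAUR4 stood at 1.14 and SAUR53 at 0.67. The share of called features that were higher went from 34.5% to 61.2% with it, and to 49.2% with quantile normalization. Relative to the median of all features, the change of SAUR53 in the deposited values was 0.63. No cell type marker passed in this comparison. The closest were EXPA7, a root hair expansin, with a log2 change of -0.51 (limma adjusted p = 0.0694) and the vascular marker PHV with -0.32 (0.0706), and their part in the SAUR changes was not tested.

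CHX given together with DEX was compared with DEX alone on 6 other arrays. SAUR4 rose again, from 4.91, 4.79 and 4.60 in root DEX to 5.65, 5.29 and 5.13 in root DEX+CHX, with no overlap. The log2 change was 0.59 (SE 0.17, 95% confidence interval 0.21 to 0.97, limma adjusted p = 0.0228). It did not pass without root DEX+CHX replicate 1 (adjusted p = 0.0858), root DEX replicate 2 (0.0506) or root DEX replicate 3 (0.0803), or in a fit over all 18 arrays (0.0980). SAUR53 was at 5.37, 5.04 and 5.32 in root DEX and at 5.43, 5.62 and 5.94 in root DEX+CHX, with each array of the latter above each of the former. Its log2 change of 0.42 (SE 0.15) missed the threshold (limma adjusted p = 0.0582), and passed with quantile normalization (0.0233), equal array medians (0.00869), the dimmest features left out (0.0475) or without root DEX+CHX replicate 1 (0.0321). SAUR10 and SAUR57 were at -0.09 and -0.04. Thus 1 of 4 members was called, beside 33.7% of all features in either direction and 11.6% as higher. The higher share of the called features was 34.5%, against 49.1% with quantile normalization and 63.1% with equal array medians.

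Both CHX comparisons were also averaged, an analysis added after the data were seen. Over 6 arrays with CHX and 6 without, SAUR4 rose by a log2 change of 0.78 (SE 0.12, limma adjusted p = 0.000422) and SAUR53 by 0.46 (SE 0.11, limma adjusted p = 0.00557). The lowest SAUR4 value with CHX, 5.13, exceeded the highest without, 4.91, whereas for SAUR53 the lowest with CHX, 5.43, fell below the highest without, 5.49. Both passed in all 19 alternatives tried, with adjusted p up to 0.00278 for SAUR4 and 0.0147 for SAUR53. Of all features 45.5% were called here, 14.4% as higher. The higher share of the called features was 31.6%, against 48.0% with quantile normalization and 59.4% with equal array medians. Relative to the median of all features SAUR4 stood at 0.91 and SAUR53 at 0.59. SAUR10 and SAUR57 did not pass, at -0.04 (95% confidence interval -0.23 to 0.14) and -0.11 (-0.32 to 0.09). In this average the cell type markers EXPA7 (log2 change -0.41, limma adjusted p = 0.0296) and PHV (-0.30, limma adjusted p = 0.0135) were lower with CHX. So were 11965 of all 38408 features by limma, with a median change of -0.13 over all features. JKD, CO2, OPS and RCA did not pass. The part of these marker shifts in the SAUR changes was not tested.

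SAUR58, the gene outside the list, had the largest CHX change of the 5 SAUR genes. It was at 3.80, 3.43 and 3.11 in root MS and at 5.52, 5.13 and 5.43 in root CHX, a log2 change of 1.91 (SE 0.21, limma adjusted p = 8.55e-05). With DEX in both groups it went from 3.21, 3.25 and 2.71 to 5.64, 5.12 and 5.35, a log2 change of 2.31 (SE 0.21, limma adjusted p = 1.81e-05). The CHX and other root arrays did not overlap in either case. The calls held in all 14 alternatives of each comparison.

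The effect of DEX, which lets TMO5-GR act, was compared with and without CHX. No SAUR gene passed. For DEX alone the members' log2 changes ran from -0.10 (SAUR57) to 0.16 (SAUR4), with limma adjusted p from 0.975 to 0.990. The 95% confidence intervals were -0.23 to 0.54 for SAUR4, -0.43 to 0.25 for SAUR53, -0.15 to 0.38 for SAUR10 and -0.40 to 0.19 for SAUR57. A change as large as that of SAUR4 with CHX (0.97) lies outside the intervals of SAUR4 and SAUR53, whereas the intervals of the dimmer pair bound the signal and not the transcript. SAUR58 was at -0.39 (95% confidence interval -0.86 to 0.08), and its root DEX and root MS arrays overlapped. With CHX in both groups the members ran from -0.22 (SAUR4) to 0.04 (SAUR57), all with adjusted p of 1.00, and SAUR58 was at 0.01 (SE 0.21). In each of these comparisons limma called 0% of all features and 0 of 4 members, and 2368 and 1189 features had an unadjusted p under 0.05, none of them a member.

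Averaged over CHX, an analysis also added after the data were seen, the DEX changes were -0.03 for SAUR4 (95% confidence interval -0.30 to 0.24), -0.13 for SAUR53 (-0.37 to 0.11), 0.07 for SAUR10 and -0.03 for SAUR57, with 0% of all features called by limma and 1798 at an unadjusted p under 0.05. The interaction tests whether the DEX response differed with CHX, which is also whether the CHX response differed with DEX. SAUR4 had an interaction of -0.38 (SE 0.24, 95% confidence interval -0.92 to 0.16, limma adjusted p = 0.999), so its smaller CHX change with DEX (0.59 against 0.97) was not shown to differ. The other members lay between -0.09 and 0.14, and SAUR58 at 0.40 (SE 0.30). Again 0% of all features were called, with 1684 at an unadjusted p under 0.05 and no member among them.

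**Figure D2:**
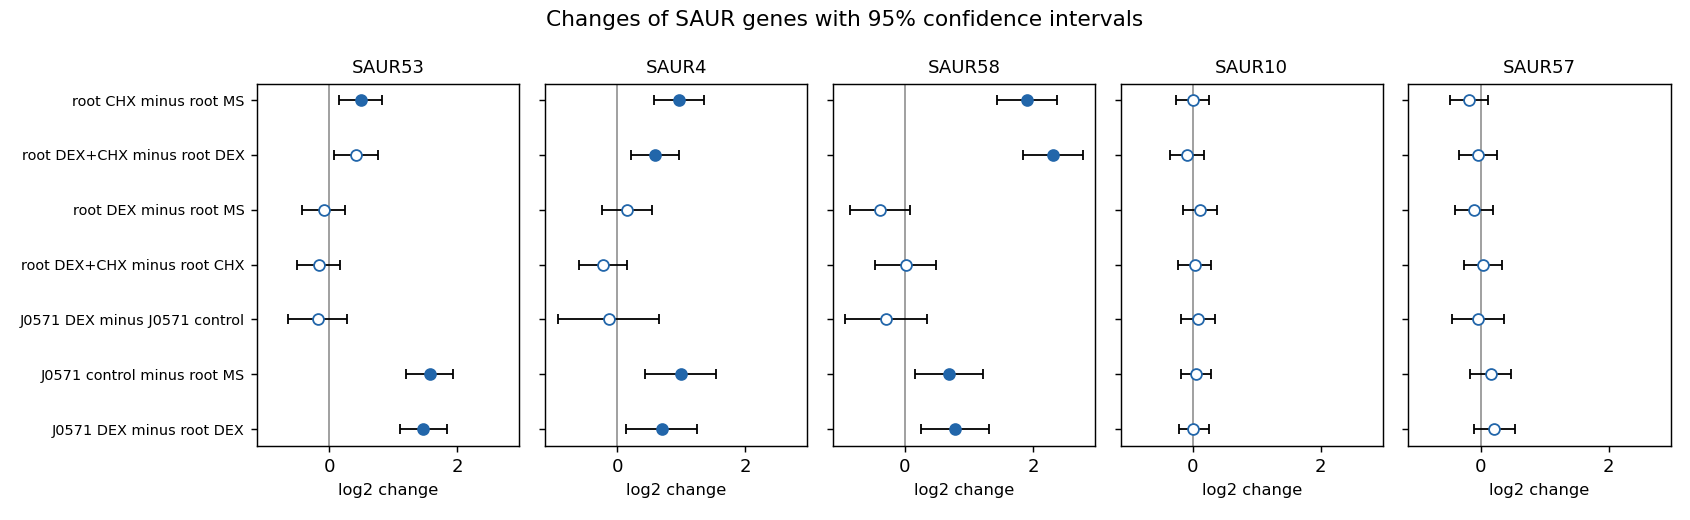
Log2 change (x axis) of SAUR genes in 7 comparisons (y axis), with bars for limma's 95% confidence interval and filled points for adjusted p under 0.05. The intervals of all 3 DEX comparisons include 0 for every gene shown. Those of SAUR4, SAUR53 and SAUR58 lie above 0 in both CHX comparisons and in both comparisons of J0571 cells with root tips. The SAUR53 point is open for root DEX+CHX minus root DEX.

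In sorted J0571 cells the question was whether DEX given for 2 h changed these genes. SAUR53 was at 6.58, 7.16 and 6.97 in J0571 control and at 6.55, 6.97 and 6.62 in J0571 DEX, and the groups overlapped. Its log2 change was -0.18 (SE 0.19, 95% confidence interval -0.64 to 0.27). SAUR4 varied most within a group here, at 4.86, 6.09 and 5.84 in J0571 control and 5.16, 5.66 and 5.57 in J0571 DEX. Its log2 change was -0.13 (SE 0.33), with a 95% confidence interval from -0.93 to 0.66, the widest of the 4 members, which includes a change as large as that of 0.59 seen with CHX in root tips given DEX. SAUR10 was at 0.08 (SE 0.11) and SAUR57 at -0.04 (SE 0.17). SAUR58 was at -0.30 (SE 0.27). With limma 0 of 4 members were called (adjusted p 0.932 to 0.984) and 0 had an unadjusted p under 0.05, beside 0.0338% of all features called. That share is 13 features, a count that ran from 0 to 68 over the alternatives. The difference between this response and that of root DEX ran from -0.29 (SAUR4, 95% confidence interval -1.07 to 0.49) to 0.06 (SAUR57) and was 0.09 for SAUR58. No member was called in that test (limma adjusted p 0.979 to 0.998), and 0.0521% of all features were, with 85.0% of those higher, against 95.2% with equal array medians.

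Levels in J0571 control were also compared with root MS. Ecotype, construct, treatment time, protoplasting and sorting all differ between these groups and cannot be told apart, nor can the number of cells and the RNA per cell. SAUR53 was about 2.96-fold higher in J0571 control, at 6.58, 7.16 and 6.97 against 5.45, 5.49 and 5.07. The lowest sorted sample lay well above the highest root tip sample, and the log2 change was 1.57 (SE 0.17, 95% confidence interval 1.20 to 1.93, limma adjusted p = 2.29e-06). SAUR4 was higher by 0.99 (SE 0.26, limma adjusted p = 0.00519), but its lowest J0571 control array (4.86) lay just above its highest root MS array (4.84). SAUR58 was higher by 0.69 (SE 0.25, limma adjusted p = 0.0323), with overlapping arrays. Its call was lost when J0571 control replicate 2 (adjusted p = 0.105) or 3 (0.116), or root MS replicate 2 (0.0708) or 3 (0.135), was left out. Fitted on only its 6 arrays, SAUR4 did not pass (adjusted p = 0.0512), nor did SAUR58 (0.0732).

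SAUR10, at 0.05 (SE 0.11), and SAUR57, at 0.16 (SE 0.15), did not pass here. So 2 of 4 members were called as higher, beside 48.9% of all features called and 26.5% called as higher. The same comparison on the 6 arrays with DEX, added after the data were seen, gave 2 of 4 members beside 51.0% of all features called and 27.4% as higher. There SAUR53 was higher by 1.47 (SE 0.17, limma adjusted p = 4.03e-06) and SAUR4 by 0.70 (SE 0.26, limma adjusted p = 0.0352). SAUR58 was higher by 0.78 (SE 0.25, limma adjusted p = 0.0164). The SAUR4 call was lost without J0571 DEX replicate 2 (0.115) or 3 (0.0932), or root DEX replicate 2 (0.0666) or 3 (0.107), and that of SAUR58 without J0571 DEX replicate 2 (0.0698) or 3 (0.0669) or root DEX replicate 3 (0.0795). SAUR53 passed in all 13 alternatives of each of these comparisons. With array medians made equal, the median change of all features moved from 0.05 to 0.30 without DEX and to 0.37 with DEX. SAUR10 (0.29 and 0.33) and SAUR57 (0.40 and 0.53) were then also called, and the share of called features that were higher went from 54.2% to 71.7% and from 53.7% to 74.6%.

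Cell type markers moved between the same groups. The 2 of 6 ground tissue markers with a feature of exactly 1 gene, JKD and CO2, had a summed level of 8.96 to 9.12 log2 in root MS, 9.76 to 10.05 in J0571 control and 9.86 to 10.10 in J0571 DEX. The sum mostly reflects JKD, with a mean of 9.02 in root MS against 3.01 for CO2. Both were higher in J0571 control than in root MS (log2 changes 0.87 and 0.73, limma adjusted p = 9.63e-06 and 0.000255). CO2 was at 3.74 in J0571 control and 3.26 in J0571 DEX, a change that did not pass (limma adjusted p = 0.779). EXPA7, the 1 of 5 epidermis markers available, was at 8.83 to 9.02 in root MS and 6.26 to 6.62 over the J0571 groups. The 2 of 5 vascular markers, PHV and OPS, summed to 7.16 to 7.48 in root MS, 6.19 to 6.26 in J0571 control and 5.53 to 5.86 in J0571 DEX. Of this pair PHV was lower in J0571 control than in root MS (log2 change -1.31, limma adjusted p = 3.56e-07), while OPS did not pass (0.14, limma adjusted p = 0.628). Between J0571 DEX and J0571 control neither PHV (log2 change -0.53, limma adjusted p = 0.759) nor OPS (-0.26, limma adjusted p = 0.910) passed. RCA, the 1 of 4 shoot photosynthesis markers available, was at 6.91 to 7.58 in root MS and 6.47 to 8.20 in J0571 control. No marker was at 0, but neither was SAUR57 at the 0.9 percentile of an array (1.65). A value above 0 therefore does not show that a marker was detected. The part of these shifts in the SAUR differences was not tested.

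Over the 6 groups, the mean level of SAUR53 increased in the order root DEX (5.24 ± 0.18, SD, n = 3), root MS (5.33 ± 0.23), root DEX+CHX (5.66 ± 0.26), root CHX (5.83 ± 0.05), J0571 DEX (6.72 ± 0.22) and J0571 control (6.90 ± 0.29). Only root CHX and J0571 DEX, among neighbours in this order, had arrays that did not overlap. SAUR4 ran from root MS (4.61 ± 0.21) and root DEX (4.77 ± 0.16) to root DEX+CHX (5.36 ± 0.27), J0571 DEX (5.47 ± 0.26), root CHX (5.58 ± 0.24) and J0571 control (5.60 ± 0.65). There the only neighbours without overlap were root DEX and root DEX+CHX. SAUR58 ran from root DEX (3.06 ± 0.30) and root MS (3.45 ± 0.35) through J0571 DEX (3.83 ± 0.41) and J0571 control (4.13 ± 0.38) to root CHX (5.36 ± 0.20) and root DEX+CHX (5.37 ± 0.26), with a gap only between J0571 control and root CHX. SAUR10 and SAUR57 had overlapping arrays at every step. The group means of SAUR10 spanned 0.13 log2, and 0.6% of all features had a span no larger. Those of SAUR57 spanned 0.34 (13.4% of all features had a span no larger), those of SAUR4 0.99 (58.8%) and those of SAUR53 1.66 (80.2%).

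In the TAIR10.1 annotation SAUR4 stands on chromosome 4 within a run of 7 neighbouring listed SAUR loci, from AT4G34750 to AT4G34810, of which it is the 1 with a feature of exactly 1 gene. Tandem SAUR genes can be alike in sequence, and whether probes of SAUR4 also detect its neighbours was not tested. SAUR53, on chromosome 1, lies next to MP (AT1G19850), the auxin response factor known to activate TMO5 in the embryo; MP has no feature of exactly 1 gene here. SAUR10 lies on chromosome 2 and SAUR57 on chromosome 3. Neither stands next to a listed SAUR locus.

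Other early auxin genes, from lists of Aux/IAA repressors, GH3 auxin-conjugating enzymes and LBD transcription factors, had 15 of 40 loci with a feature of exactly 1 gene. With CHX alone 8 of the 15 rose and 0 fell (median 0.61, against -0.13 over all features and -0.05 over genes with a feature of exactly 1 gene). With DEX in both groups 8 rose and 0 fell (median 0.70). Of all features 10.4% and 11.6% were called as higher in these comparisons. GH3.3 rose from 6.03 ± 0.38 to 9.78 ± 0.41 (log2 change 3.75, SE 0.34, limma adjusted p = 2.06e-05) and LBD29, a regulator of lateral root initiation, from 8.13 ± 0.24 to 11.37 ± 0.16 (log2 change 3.24, SE 0.15, limma adjusted p = 1.59e-07). The log2 changes of SAUR4 (0.97) and SAUR53 (0.49) were numerically smaller than those of GH3.3 and LBD29, a difference that was not tested. SAUR4 and SAUR58 (1.91) lay above the median of the 15 (0.61) and SAUR53 below it. With DEX, in root tips or J0571 cells, 0 of the 15 were called by limma. Of all features 0% were called for DEX in root tips and 0.0338% in J0571 cells, so this count does not set the 15 apart. In J0571 control against root MS 6 of the 15 were higher, and LBD29 was lower, by a log2 change of -1.56 (SE 0.18, limma adjusted p = 3.64e-06). Of all features 26.5% were called as higher here and 48.9% in either direction. The count called in either direction is near that share. Whether the count called as higher exceeds its share was not tested.

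Of the PP2C.D phosphatases, 4 of 9 had a feature of exactly 1 gene. PP2C.D4 (AT3G55050) rose with CHX from 6.27 ± 0.13 to 7.30 ± 0.09 (log2 change 1.04, SE 0.12, limma adjusted p = 0.000106) and with DEX in both groups by 0.91 (SE 0.12, limma adjusted p = 0.000211). PP2C.D2, PP2C.D3 and PP2C.D6 did not pass in either, with changes from -0.25 to -0.04. So 1 of 4 was called in each comparison, beside 30.1% and 33.7% of all features in either direction. As higher, 10.4% and 11.6% of all features were called. The count called in either direction is near its share, so it does not set this class apart. The proton pumps (AHA, 11 loci), the TIR1/AFB auxin receptors (6) and the activating auxin response factors (5) have no feature of exactly 1 gene and were not analysed here.

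**Figure D3:**
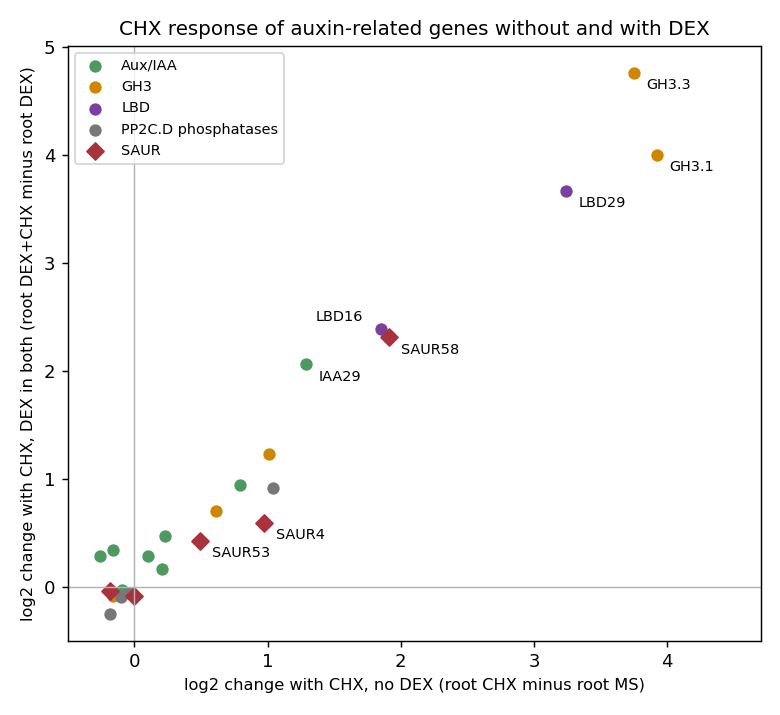
Log2 change with CHX in root tips without DEX (x axis) and with DEX in both groups (y axis), one point per gene, coloured by list, with SAUR genes as diamonds. SAUR4 (0.97 and 0.59), SAUR53 (0.49 and 0.42) and SAUR58 (1.91 and 2.31) lie below GH3.1, GH3.3 and LBD29, which have the largest changes shown. SAUR10 and SAUR57 lie near 0.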

How the data were processed

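The deposited values are log2 signals that the authors made with RMA, which sets arrays on a shared distribution and condenses the probes of each feature, per the submitters' processing notes; its version is not given in the sources used here, nor whether all arrays were normalized together. RNA was copied into whole-transcript cDNA, per the labels' protocols. Features were named through the platform's table of probes and the TAIR10.1 annotation. All 38408 features were fitted with limma 3.58.1 in R 4.3.3, with 1 mean per group, eBayes, two-sided tests, Benjamini-Hochberg adjustment over all features and a threshold of 0.05. The 12 root arrays were fitted together, the 6 J0571 arrays separately, and contrasts across both over all 18; 11 contrasts were tested. The procedure was tested on simulated data. For arrays, their number limits the precision. All SAUR genes with a usable feature are named; of other lists, counts and called members. Members, lists and tests were chosen with earlier results of these data known. Alternatives were another normalization, equal medians, a low-signal filter, other eBayes options, repeated features once, a replicate block, other arrays in the fit and leaving out each array. Same-numbered arrays are not paired by any label: their deviations from group means correlated at -0.243 to 0.254. No sequence was available to print.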

Additional observations from a re-analysis of the deposited data

How the results depend on the processing

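The count of members called in each DEX comparison (root tips, J0571 cells, the interaction, the difference between experiments and the DEX average) stayed at 0 in every alternative run, and that of the averaged CHX effect at 2. For root CHX against root MS the count of 2 was 1 with the replicate block, where SAUR53 had an adjusted p of 0.0594, and 1 to 2 with 1 array left out. For root DEX+CHX against root DEX the count of 1 was 2 with quantile normalization, equal array medians or the dimmest features left out, 0 in the fit over all 18 arrays, and 0 to 1 with 1 array left out. For J0571 control against root MS the count of 2 was 4 with equal array medians, 1 with only the groups of the comparison, and 2 throughout with 1 array left out. For J0571 DEX against root DEX the count of 2 was 4 with equal array medians and 1 to 2 with 1 array left out. The replicate block changed no other call of a SAUR gene, but took the features called for DEX in J0571 cells from 13 to 0. No called change reversed. The cause of these shifts was not tested. SAUR57 falls among the dimmest features and was not tested with them left out. Averaging several features of a gene was not run, since each member has 1 feature.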
